A study of Mus musculus with 26 samples.

Results

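Tstd1, Ccdc68, Wfdc1, Olah and Mcoln3 are 5 of the 23107 genes counted in mouse GnRH neurons and in the tissue around them. They were chosen by their counts in these libraries, which were among the most enriched on the ribosomes pulled down from GnRH neurons, with earlier results of these data known. Their enrichment is therefore a description here and carries no test. The mice came from a cross of GnRH CRE males with Floxed L10a-GFP females, so that Cre expressed from the GnRH gene's control put a GFP-tagged ribosomal protein L10a into GnRH neurons. Every library, including the supernatants used as reference, came from mice of this genotype (GnRH CRE x Floxed L10a-GFP) aged 55 to 165 days.

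The tissue was punched from the preoptic area of the hypothalamus and pooled over 5 to 7 mice. Each of 13 pools gave an immunoprecipitate, the RNA on the tagged ribosomes, and a supernatant, the RNA left behind. The pools were 3 of intact diestrous females, 3 of ovariectomized females, 4 of intact males and 3 of orchidectomized males. Library totals ran from 27217252 to 56668581 estimated counts. The p-values below measure the spread between these pools. In bulk RNA of this kind, fewer cells of a type and less RNA per cell cannot be told apart.

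GnRH neurons are the few scattered hypothalamic cells that release gonadotropin-releasing hormone and so drive the pituitary and the gonads. Gnrh1 encodes the hormone's precursor and marks the cells. The 5 genes belong to different protein families. Tstd1 encodes a small single-domain rhodanese that moves sulfur from thiosulfate to glutathione. Ccdc68 encodes a coiled-coil protein of the centriole's subdistal appendages. Wfdc1 encodes a secreted protein with a WAP four-disulfide core, also called ps20. Olah encodes a thioesterase that releases medium-chain fatty acids from fatty acid synthase, known from the lactating mammary gland. Mcoln3 encodes TRPML3, a cation channel of endosomes and lysosomes whose mutation causes deafness in varitint-waddler mice.

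Upstream sequence is shown for Tstd1, whose level was called to move with Gnrh1 in both fractions, and for Olah and Mcoln3, whose slopes on Gnrh1 did not pass. The sequences are from RefSeq on build GRCm38.p6, which places a start for these 3 genes. For Olah and Mcoln3 they cover the bases from 250 before the start up to the first base that GENCODE counts as exon. Both stretches lie inside the gene as GENCODE bounds it, from 3341982 to 3397210 for Olah and from 146117450 to 146141806 for Mcoln3. GENCODE thus places a start further upstream for both, and sequence before that start is not shown. The same holds for Tstd1, which GENCODE bounds from 171418872, so the bases shown for it also lie inside the annotated gene. All 250 bases before the Tstd1 start lie in exons of Usf1 or Tstd1, so only the 30 bases around its TATAAA are shown. Capitals mark TATAAA and CANNTG, the E-box letters, and the Mcoln3 stretch holds neither. The intervals are chr1:171418924-171418953 on the plus strand for Tstd1, chr2:3366601-3366819 on the minus strand for Olah and chr3:146121541-146121671 on the plus strand for Mcoln3.
Tstd1: acctgggcagtcTATAAAggtttCAACTGt
Olah: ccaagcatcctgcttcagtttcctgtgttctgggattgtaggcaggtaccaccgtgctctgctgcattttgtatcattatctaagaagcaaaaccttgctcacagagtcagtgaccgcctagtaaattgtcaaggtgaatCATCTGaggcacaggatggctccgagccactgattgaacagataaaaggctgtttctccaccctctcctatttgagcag
Mcoln3: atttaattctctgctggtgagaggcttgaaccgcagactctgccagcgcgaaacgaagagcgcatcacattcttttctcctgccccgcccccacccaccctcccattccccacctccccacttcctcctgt

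Both strands of the 250 bases before each of these 3 RefSeq starts were searched. TATAAA was found 97 bases before the RefSeq start of Tstd1, after its GENCODE start, and in neither of the other windows. It is held by 12.4% of 32851 RefSeq promoters. CANNTG was found 86 and 57 bases before the start of Tstd1, 110 before that of Olah and 33 before that of Mcoln3, and 66.2% of promoters hold it. TAATCC, a core bound by OTX-type homeodomains, and TAATTA, a general homeodomain core, were in none of these 3 windows, against 6.25% and 4.84% of promoters. A match is a run of letters and not a shown binding site.

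Tstd1 and Wfdc1 were the more abundant of the 5 in the immunoprecipitates. Levels here are CPM, a gene's counts scaled to library size with TMM factors. Tstd1 ran from 28.9 to 159 CPM over the 13 immunoprecipitates with a median of 61.4, and Wfdc1 from 27.8 to 143 with a median of 55.2. Ccdc68 ran from 6.78 to 23.7 CPM with a median of 16.9. Olah ran from 3.27 to 13.6 CPM with a median of 4.83, and Mcoln3 from 0.574 to 6.58 with a median of 2.96. The spread between the highest and the lowest pool was thus widest for Mcoln3, whose lowest library held 23 counts. Per kilobase of exon, mean levels in the immunoprecipitates were 82.4 ± 46.7 (SD, n = 13) for Tstd1, 48.2 ± 27.9 for Wfdc1, 6.66 ± 2.24 for Ccdc68, 3.78 ± 1.77 for Olah and 0.883 ± 0.531 CPM per kilobase for Mcoln3. On the same scale Gnrh1 stood at 15500 ± 10200 CPM per kilobase. Neighbours in this order overlapped in their ranges over pools, except that the lowest Wfdc1 level (18.1) lay above the highest Ccdc68 level (9.7) and the lowest Gnrh1 level (4940) above the highest Tstd1 level (184).

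In the supernatants the same genes were near the limit of detection or a small fraction of their level on the ribosomes. Tstd1 ran from 0.542 to 8.68 CPM with a median of 0.985, Ccdc68 from 0.321 to 1.69 with a median of 0.442, and Wfdc1 from 2.81 to 13 with a median of 4.94. Olah ran from 0.0428 to 0.682 CPM with a median of 0.182. Mcoln3 had 0 counts in 3 supernatants, intact female replicates 0 and 1 and ovariectomized female replicate 2, and reached 0.305 CPM. For each of the 5 genes, every one of the 13 supernatants lay below the lowest immunoprecipitate. The genes were chosen on this contrast and no share of all genes is set beside it, so nothing is read from that separation.

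**Figure D1:**
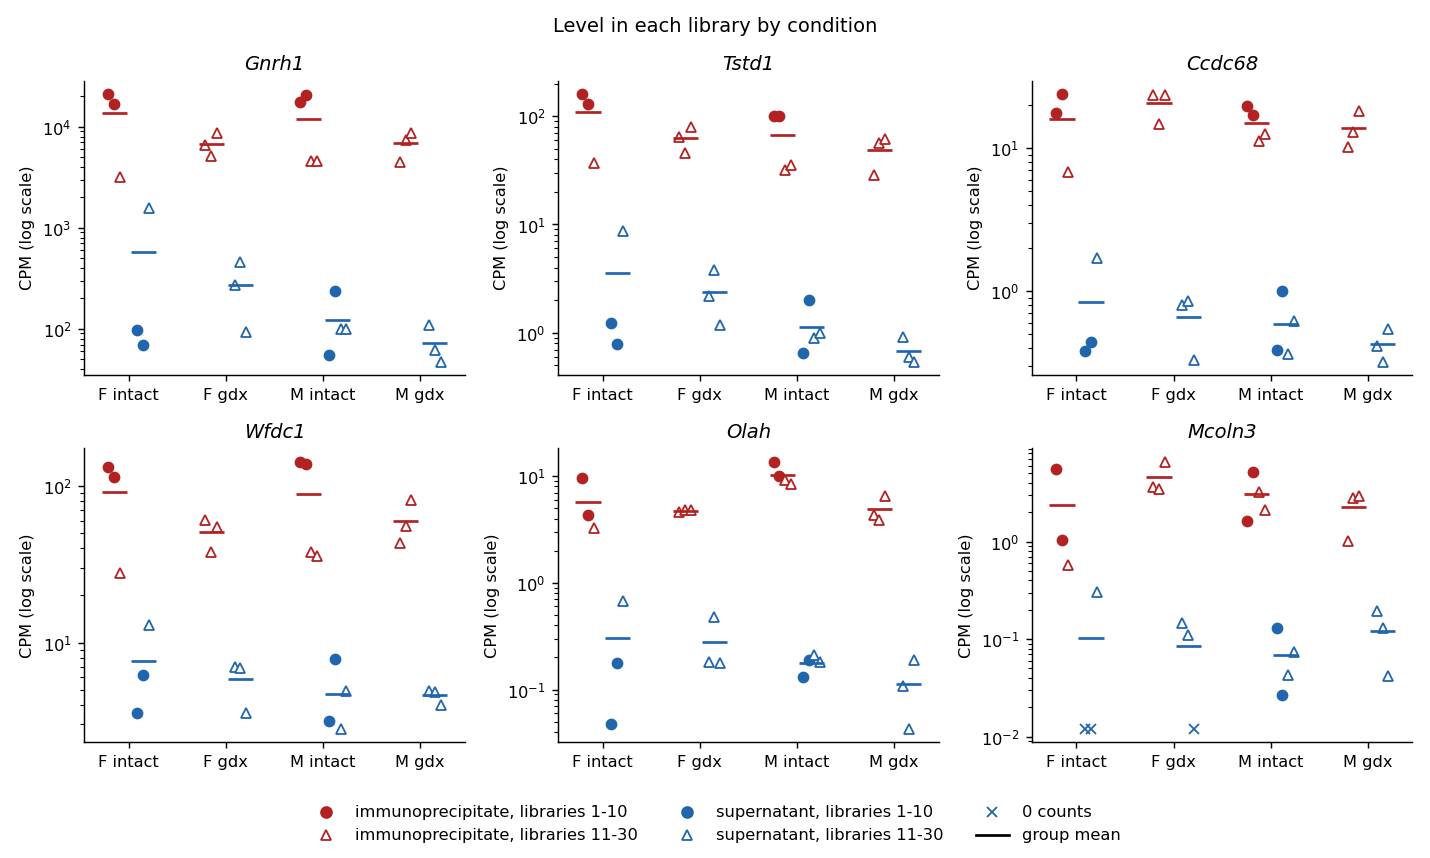
CPM (log axis) of Gnrh1 and the 5 genes in the immunoprecipitate (red) and supernatant (blue) of each pool, by sex and gonadal state (gdx, gonadectomized); filled circles are libraries numbered 1 to 10, open triangles those numbered 11 to 30, and bars are group means. The fractions do not overlap for any of the 6 genes, and the 5 were chosen on this contrast. The highest supernatant is in each case that of intact female replicate 2.

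Averaged over the 4 conditions, the immunoprecipitate held 42.9 times the Tstd1 level of the supernatant, a log2 of 5.42 ± 0.38 (SE) and rank 7 of 16713 genes tested. Mcoln3 followed at log2 4.96 ± 0.59 (rank 12), Olah at 4.87 ± 0.34 (rank 14), Ccdc68 at 4.72 ± 0.28 (rank 22) and Wfdc1 at 3.67 ± 0.30 (rank 56). Gnrh1 itself ranked 4 at 5.58 ± 0.51. All 5 genes were higher in the immunoprecipitate of 13 of 13 pools. Of all genes tested, 21.3% were called higher in the immunoprecipitate (edgeR's quasi-likelihood test, adjusted p under 0.05), and the median log2 fold change over all genes was -0.06. Since the choice of the genes used this contrast, nothing is read from the members' share.

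Some markers of other cells were also higher in the immunoprecipitate. Of 10 endothelial and mural markers 3 were called higher (Cldn5 at log2 1.34, Flt1 at 1.19 and Abcb1a at 1.97) and 1 lower. Of 8 ependymal and tanycyte markers 3 were called higher (1700027A23Rik at 2.63, Dynlrb2 at 0.91 and Ccdc153 at 0.51) and 1 lower. Of the other preoptic neuron markers 1 of 7 was higher and 3 were lower. None of the 9 oligodendrocyte, 8 astrocyte, 7 microglial, 8 choroid plexus and meningeal or 4 measured blood markers was higher, and 9, 6, 5, 2 and 3 of them were lower. The part of these cells in the levels of the 5 genes was not tested.

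By condition, Tstd1 was enriched by 4.91 ± 0.75 (log2, SE) in intact females, 4.73 ± 0.76 in ovariectomized females, 5.89 ± 0.70 in intact males and 6.16 ± 0.82 in orchidectomized males. Olah followed the same order of sexes, at 4.19 ± 0.67 and 4.08 ± 0.68 in females and 5.82 ± 0.63 and 5.40 ± 0.72 in males, intact before gonadectomized. Wfdc1 lay between 3.14 ± 0.60 in ovariectomized females and 4.24 ± 0.54 in intact males. Ccdc68 was the most even of the 5, between 4.24 ± 0.56 in intact females and 5.01 ± 0.59 in orchidectomized males, and Mcoln3 lay between 4.19 ± 1.16 and 5.76 ± 1.27. The share of all genes called higher was 10.2% in intact females, 2.97% in ovariectomized females, 14.6% in intact males and 5.93% in orchidectomized males.

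One pool stood apart. In intact female replicate 2 the fold between fractions was 4.26 for Tstd1, 4.02 for Ccdc68, 2.14 for Wfdc1, 4.79 for Olah and 1.88 for Mcoln3, the lowest of the pools for each. The median folds over pools were 50.1, 30.7, 13.5 and 40.1 for the first 4, and 26.9 for Mcoln3 over the 10 pools with a count in the supernatant. In the other 3 pools Mcoln3 was at least 15.9-fold to at least 86.8-fold higher, against 3 counts per library. Gnrh1 was likewise lowest in that pool, at 2.01-fold against a median of 88.0.

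Both fractions of the pool contributed. Its supernatant was the highest of the 13 for all 5 genes and for Gnrh1: 8.68 against a next value of 3.82 CPM for Tstd1, 1.69 against 0.993 for Ccdc68, 13 against 7.89 for Wfdc1 and 1580 against 454 for Gnrh1. Of all genes tested in the supernatants, 6.8% were highest in this library. Its immunoprecipitate was the lowest of the 13 for Ccdc68, Wfdc1, Olah, Mcoln3 and Gnrh1, but not for Tstd1, which was lowest in orchidectomized male replicate 0. Without this pool the log2 fold changes were 6.01 for Tstd1, 5.09 for Ccdc68, 3.96 for Wfdc1 and 5.32 for Olah. Both remaining intact female supernatants held 0 Mcoln3 counts, so its log2 fold change without the pool is a bound of at least 5.54, with 3 counts set for that group.

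Set against Gnrh1 in the same library, Wfdc1 was the steadiest of the 5 in the immunoprecipitates. Wfdc1 had 6.26 to 9.75 counts per 1000 Gnrh1 counts over the 13 immunoprecipitates, with a median of 7.89, a 1.56-fold range. Tstd1 had 4.87 to 11.7 with a median of 7.63, a 2.4-fold range. The other genes varied more. Ccdc68 ran from 0.815 to 3.58 (4.39-fold), Olah from 0.254 to 1.99 (7.83-fold) and Mcoln3 from 0.0622 to 0.749 counts per 1000 Gnrh1 counts (12-fold).

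In the supernatants the order changed. Tstd1 kept a similar proportion to Gnrh1, with 5.5 to 12.8 counts per 1000 Gnrh1 counts (median 9.69), and 11 of 13 supernatants fell within the range of the immunoprecipitates. Wfdc1 did not: its supernatant ratio reached 90.5 with a median of 38.4, which is 4.87 times the median of the immunoprecipitates. In 12 of 13 pools the Wfdc1 ratio was higher in the supernatant. The exception was intact female replicate 2, at 8.24 in the supernatant and 8.77 in the immunoprecipitate. Ccdc68 had a median supernatant ratio of 3.89 against 2.14, Olah of 1.06 against 0.742 and Mcoln3 of 0.428 against 0.339, from few counts. The median ratio in the supernatant over that in the immunoprecipitate was thus 4.87 for Wfdc1 and 1.27 for Tstd1. Among genes of other enriched groups it was 0.784 for Rab25, 0.959 for Epcam, 1.23 for Bahcc1, 1.27 for Otx1 and 1.48 for Bcor. It was 1.68 for Tmprss6, 1.75 for Tnrc18, 2.09 for Cldn9, 4.04 for Six6 and 30.7 for Isl1. For Rab25 and Bahcc1, as for Tstd1, 11 of 13 supernatants fell within the range of the immunoprecipitates. These ratios use the contrast on which the genes were picked and were not tested.

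**Figure D2:**
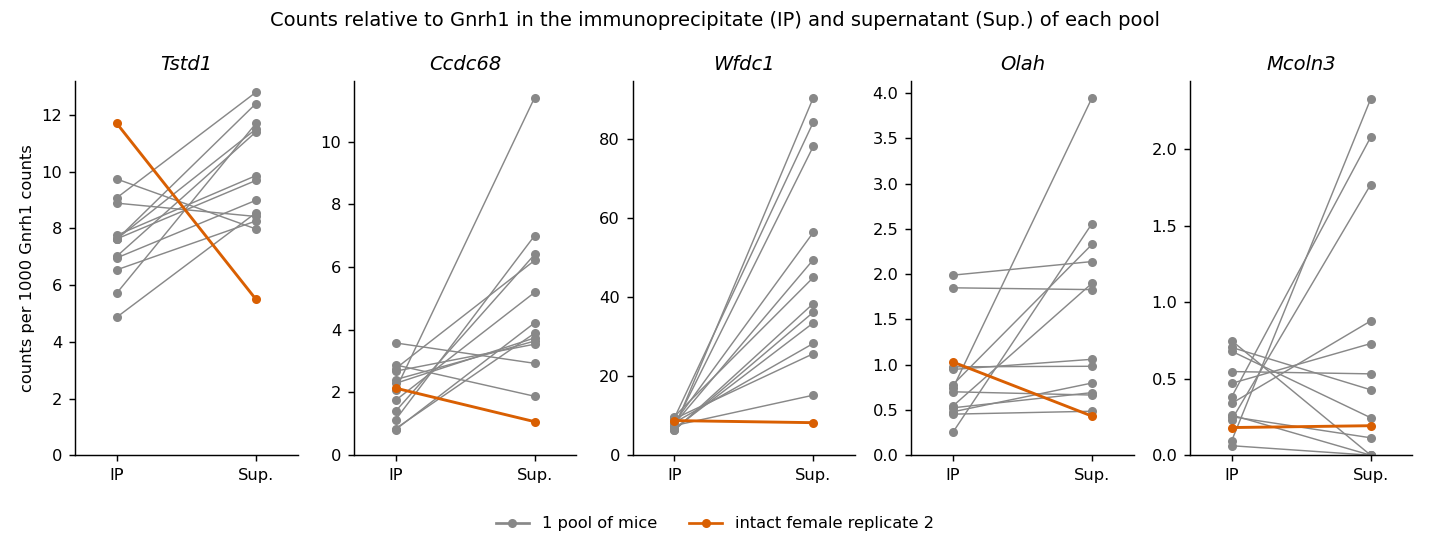
Counts of each gene per 1000 Gnrh1 counts in the immunoprecipitate (IP) and supernatant (Sup.) of each of the 13 pools, joined by a line, each panel on its own linear axis. Wfdc1 is narrow in the immunoprecipitates (6.26 to 9.75) and up to 90.5 in the supernatants, while Tstd1 stays between 4.87 and 12.8 in both; the orange line is intact female replicate 2.

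Across the 13 immunoprecipitates, Tstd1, Wfdc1 and Ccdc68 had a called positive slope on Gnrh1 before library numbering entered the fit. Levels of Gnrh1 fell into 2 separate sets of pools: 16900 to 20900 CPM in the 4 pools whose libraries are numbered 1 to 10 in the labels, and 3170 to 8770 in the 9 pools numbered 11 to 30. No correlation with Gnrh1 over all 13 is given as a result for that reason. In a fit over all genes with the 4 conditions as covariate, the slope of log2 level on log2 Gnrh1 was 0.88 ± 0.07 (SE) for Wfdc1 (adjusted p 1.24e-05), 0.79 ± 0.06 for Tstd1 (8.93e-06) and 0.48 ± 0.12 for Ccdc68 (0.0154), by edgeR's quasi-likelihood test. A slope of 1 would be strict proportion to Gnrh1. The slopes of Mcoln3 (0.68 ± 0.31, adjusted p 0.181) and Olah (0.32 ± 0.17, 0.24) did not pass. So 3 of 5 genes had a called positive slope, against 8.4% of the 16159 genes tested. By p, Tstd1 ranked 5 and Wfdc1 7 among those genes.

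None of these calls remained once library numbering entered the fit. With a term for library numbering in the fit, 0 of 5 genes and 0 of all genes were called (of all genes, 0%). The slope was then 1.02 for Tstd1 (adjusted p 0.0848), 0.70 for Wfdc1 (0.325) and 0.75 for Ccdc68 (0.622). In the 9 later immunoprecipitates alone the slopes were 1.10, 0.77 and 0.80, with adjusted p of 0.163, 0.342 and 0.513, and again no gene was called. The slope of Ccdc68 also lost its call without the immunoprecipitate of intact female replicate 2, at 0.36 (adjusted p 0.206), and with no condition groups in the fit, at 0.39 (0.0666). The slopes of these 3 genes stayed positive in each of these fits.

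Within the 9 later immunoprecipitates 4 of the 5 genes followed Gnrh1 on the log2 scale. Wfdc1 had Pearson's r = 0.92 (exact permutation p 0.0012) and Spearman's rho = 0.78 (0.017). Tstd1 had r = 0.86 (exact permutation p 0.0051) and rho = 0.83 (0.0083). Ccdc68 had r = 0.85 (exact permutation p 0.0039) and rho = 0.90 (0.002). These 3 are the genes that were also called over all pools. Mcoln3 had r = 0.79 (exact permutation p 0.0086) and rho = 0.75 (0.025). Olah did not follow Gnrh1, with r = 0.06 (exact permutation p 0.87) and rho = 0.18 (0.64).

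Of all genes, 0.0495% had an r at or above that of Wfdc1, 0.229% for Tstd1, 0.241% for Ccdc68, 0.761% for Mcoln3 and 41.8% for Olah. Both values of a pair share the library and its scaling, and these p-values are two-sided, unadjusted and for 5 relations. Without the 2 libraries farthest from the median of Gnrh1, r over the remaining 7 was 0.93 for Wfdc1, 0.75 for Tstd1, 0.79 for Ccdc68, 0.77 for Mcoln3 and -0.02 for Olah. Leaving out each library in turn, r of Wfdc1 stayed between 0.87 and 0.95, of Tstd1 between 0.81 and 0.93, of Ccdc68 between 0.75 and 0.91, and of Mcoln3 between 0.63 and 0.85. The immunoprecipitate of intact female replicate 2 bore on these values. Without it Mcoln3 had r = 0.63 (exact permutation p 0.085) and rho = 0.64 (0.096), and rho of Wfdc1 was 0.69 (exact permutation p 0.069). The share of genes at or above each r was then 0.254% for Wfdc1, 0.0433% for Tstd1, 1.45% for Ccdc68, 4.51% for Mcoln3 and 78.6% for Olah.

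**Figure D3:**
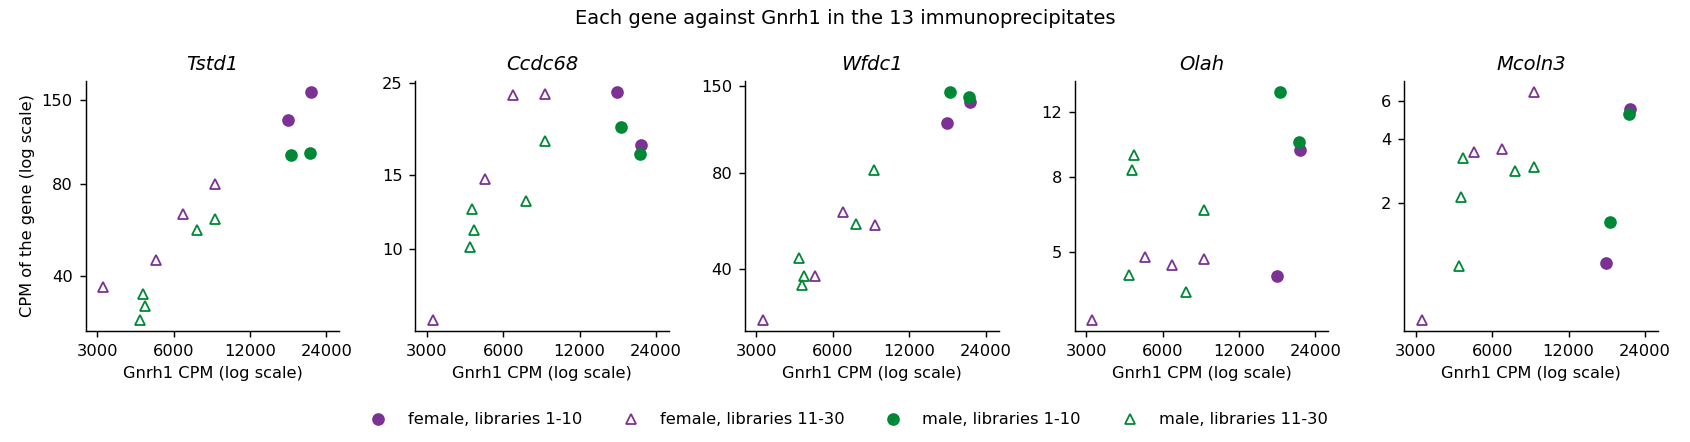
CPM of each gene against CPM of Gnrh1 (both axes logarithmic, each gene with its own vertical range) in the 13 immunoprecipitates, by sex (purple, female; green, male) and library numbering (filled, 1 to 10; open, 11 to 30). Tstd1 and Wfdc1 climb with Gnrh1 from 3170 to 20900 CPM, while Olah and Mcoln3 scatter.

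The numbering itself moved with these genes. In the immunoprecipitates, Wfdc1 was higher in libraries 1 to 10 by 2.02 ± 0.22 on the log2 scale (adjusted p 0.000142), Tstd1 by 1.73 ± 0.26 (0.000583) and Ccdc68 by 1.00 ± 0.32 (0.0478), beside 2.26 ± 0.23 for Gnrh1 (9.16e-05). Mcoln3 (1.10 ± 0.84, adjusted p 0.432) and Olah (0.68 ± 0.41, 0.312) did not pass, so 3 of 5 genes were called higher against 9.6% of all genes. For Tstd1 and Wfdc1 every library of the first set lay above every later one, as did 7.77% of all genes. In the supernatants 0 of 3 tested members were called for the numbering (Tstd1 -1.22 ± 0.64, adjusted p 0.241), where 8.26% of all genes were called higher in libraries 1 to 10. The first set holds intact mice only, in pools of 6 or 7, so numbering, gonadal state and pool size cannot be fully told apart.

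Summed markers of other cells differed in direction there. The summed level of 9 oligodendrocyte markers was 1280 to 1450 CPM in immunoprecipitates 1 to 10 and 1360 to 2020 in the later ones. That of 8 astrocyte markers was 358 to 431 against 414 to 2030 CPM, and that of 7 markers of other preoptic neurons 967 to 1130 against 1120 to 1510 CPM. The 8 ependymal and tanycyte markers summed to 113 to 159 CPM in immunoprecipitates 1 to 10 and 74.4 to 161 in the later ones, and 1 of these 8 had a called positive slope on Gnrh1. Choroid plexus and meningeal markers summed to 27.3 to 76.2 against 39.9 to 125 CPM. Sums of microglial (36.5 to 46.7 CPM), endothelial and mural (31.3 to 97.8) and blood markers (48.7 to 76.9) in immunoprecipitates 1 to 10 lay inside the range of the later ones. The part of these markers in the slopes was not tested. The summed 6 GnRH neuron markers ran from 3460 to 21600 CPM in the immunoprecipitates, mostly Gnrh1, and from 181 to 1720 in the supernatants. In the supernatants Gnrh1 had a median of 99.5 CPM, beside means of 64.6 for Gal and 62.7 for Isl1. All 6 markers were detected in both fractions.

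In the supernatants, where the genes are scarce, Tstd1 followed Gnrh1 most closely. Its slope on log2 Gnrh1 was 0.74 ± 0.06 (adjusted p 5.5e-05 by edgeR's quasi-likelihood test), the lowest p among the 11 genes called of 16359 (0.0672%). Ccdc68 (0.48 ± 0.10, adjusted p 0.203) and Wfdc1 (0.36 ± 0.08, 0.216) did not pass, and Olah and Mcoln3 were too scarce to be tested. Thus 1 of 3 tested genes was called. The other 10 genes called were Epcam, Gng8, Bahcc1, Otx1, Rab25, Gse1, Tnrc18, A930003A15Rik, Tmprss6 and Mn1, whose enrichment ranked between 3 and 46 of 16713. The call on Tstd1 held with a term for library numbering (slope 0.75, adjusted p 0.000522, 0.0489% of genes called). It was lost when intact female replicate 2 was left out, at a slope of 0.74 (adjusted p 0.388), and in libraries 11 to 30 alone (0.70, 0.263).

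Over the 13 supernatants Tstd1 had r = 0.99 with Gnrh1 (permutation p 1e-05, the smallest that 100000 resamples can give) and rho = 0.90 (0.00012). Ccdc68 had r = 0.87 (0.00033) and rho = 0.68 (0.013), and Wfdc1 r = 0.82 (0.0007) and rho = 0.70 (0.0094), both by permutation. Without the 2 supernatants farthest from the median of Gnrh1, intact female replicate 2 and ovariectomized female replicate 1, r was 0.96 for Tstd1 (permutation p 3e-05), 0.70 for Ccdc68 (0.019) and 0.61 for Wfdc1 (0.046). Of all genes, 0.00611%, 1.53% and 5.82% then had an r at or above that of Tstd1, Ccdc68 and Wfdc1. The correlation of Tstd1, which has no term for condition, thus stayed high without those libraries. Its called slope was nonetheless lost without intact female replicate 2. For Ccdc68 and Wfdc1 rho fell to 0.49 and 0.54 (permutation p 0.13 and 0.094).

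Whether sex or gonadectomy altered the 5 genes was asked in each fraction and in the enrichment itself. No gene passed in any of these comparisons. In the immunoprecipitates 0 of 20 tests were called by edgeR's quasi-likelihood test and 1 had an unadjusted p under 0.05. Of all genes, 0% were called for gonadectomy of females, 0% for gonadectomy of males, 0.0248% for sex in intact mice and 0.0186% for sex in gonadectomized mice. In the supernatants 0 of 12 tests were called and 2 had an unadjusted p under 0.05, against 0.0122%, 0%, 0.0428% and 0.0428% of all genes called. For a change of the enrichment, 0 of 20 tests were called and 0 had an unadjusted p under 0.05, against 0%, 0%, 0.00598% and 0%. DESeq2 called 0 members in all of these comparisons too.

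Tstd1 on the ribosomes was 159, 129 and 37.0 CPM in intact females, 63.9, 45.3 and 79.7 in ovariectomized females, 99.4, 101, 32.1 and 35.1 in intact males and 28.9, 56.5 and 61.4 in orchidectomized males. Its means were in the order intact females (108 ± 63.6), intact males (66.9 ± 38.4), ovariectomized females (62.9 ± 17.2) and orchidectomized males (49.0 ± 17.5). Neighbours in this order overlapped, and the change with gonadectomy was -0.79 on the log2 scale in females (95% interval -1.81 to 0.24, edgeR) and -0.45 in males (-1.41 to 0.51). All gonadectomized pools are numbered 11 to 30. Within those numbers Tstd1 was 37.0 CPM in intact female replicate 2, below every ovariectomized pool. In intact males it was 32.1 and 35.1 CPM there, inside the range of orchidectomized males. Wfdc1 ran from 92.1 ± 56.4 (SD, n = 3) in intact females through 88.7 ± 60.0 (n = 4) in intact males and 60.0 ± 19.7 (n = 3) in orchidectomized males to 51.2 ± 11.5 (n = 3) in ovariectomized females, again with overlap. Within numbers 11 to 30 the order by gonadal state was the other way. There Wfdc1 was 27.8 CPM in intact female replicate 2 against 60.3, 38.2 and 54.9 after ovariectomy. In males it was 38.0 and 35.7 CPM when intact against 43.2, 55.2 and 81.7 after orchidectomy. For both genes the spread was wider in the intact groups, which hold both sets of library numbers, than in the gonadectomized groups. With a term for library numbering in the fit, Tstd1 was higher in the lower-numbered set by 1.73 ± 0.26 (log2, adjusted p 0.000583, edgeR). Wfdc1 was higher there by 2.02 ± 0.22 (adjusted p 0.000142, edgeR). What share of the spread within the intact groups this difference makes up was not tested.

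Ccdc68 was 20.5 ± 5.10 CPM in ovariectomized females, 16.1 ± 8.56 in intact females, 15 ± 3.91 in intact males and 13.7 ± 4.06 in orchidectomized males. Mcoln3 was 4.54 ± 1.76 in ovariectomized females, 3.06 ± 1.59 in intact males, 2.37 ± 2.71 in intact females and 2.27 ± 1.08 in orchidectomized males. Neither gene had an unadjusted p under 0.05, and the intervals for Mcoln3 were the widest of the 5, as from -0.68 to 2.55 for gonadectomy of females. These tests therefore bound changes of Mcoln3 loosely.

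Olah, the thioesterase, came nearest to a difference on the ribosomes. It stood at 13.6, 9.94, 9.17 and 8.36 CPM in intact males and at 4.33, 3.88 and 6.49 in orchidectomized males. The change was -1.07 ± 0.44 on the log2 scale (95% interval -1.92 to -0.21), with an unadjusted p of 0.0274 and an adjusted p of 0.525 by edgeR. Of 16160 genes tested in this comparison, 1509 had an unadjusted p under 0.05 by the same test. In females Olah was 9.5, 4.29 and 3.27 CPM when intact and 4.6, 4.83 and 4.77 after ovariectomy. The groups of females overlapped, at -0.27 (95% interval -1.16 to 0.62). In libraries 11 to 30 alone the male difference was -0.84 (adjusted p 0.804).

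Tstd1 in the supernatant was lower in males in both gonadal states before adjustment. In intact mice it was 1.22, 0.795 and 8.68 CPM in females and 0.648, 2.01, 0.895 and 0.985 in males. The groups overlapped, and the log2 difference of -1.64 ± 0.65 (unadjusted p 0.0236, adjusted p 0.861 by edgeR) became 0.18 (adjusted p 0.946) without the supernatant of intact female replicate 2. Same-numbered supernatants of both intact sexes deviated together, and they also share a set of library numbers. With the replicate number as a block the difference was -1.44 ± 0.81 (unadjusted p 0.102, adjusted p 0.881 by edgeR). In gonadectomized mice it was 2.18, 3.82 and 1.19 CPM in females and 0.907, 0.6 and 0.542 in males. The log2 difference there was -1.80 ± 0.75 (unadjusted p 0.0302, adjusted p 0.189 by edgeR). Of 16360 genes tested in that comparison, 3445 had an unadjusted p under 0.05 by the same test. Gnrh1 moved with Tstd1 in those supernatants. It was 273, 454 and 92.8 CPM in females and 110, 61.9 and 47.5 in males, at -1.91 ± 0.92 (adjusted p 0.252 by edgeR). Whether the Tstd1 difference goes with that of Gnrh1 was not tested.

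**Figure D4:**
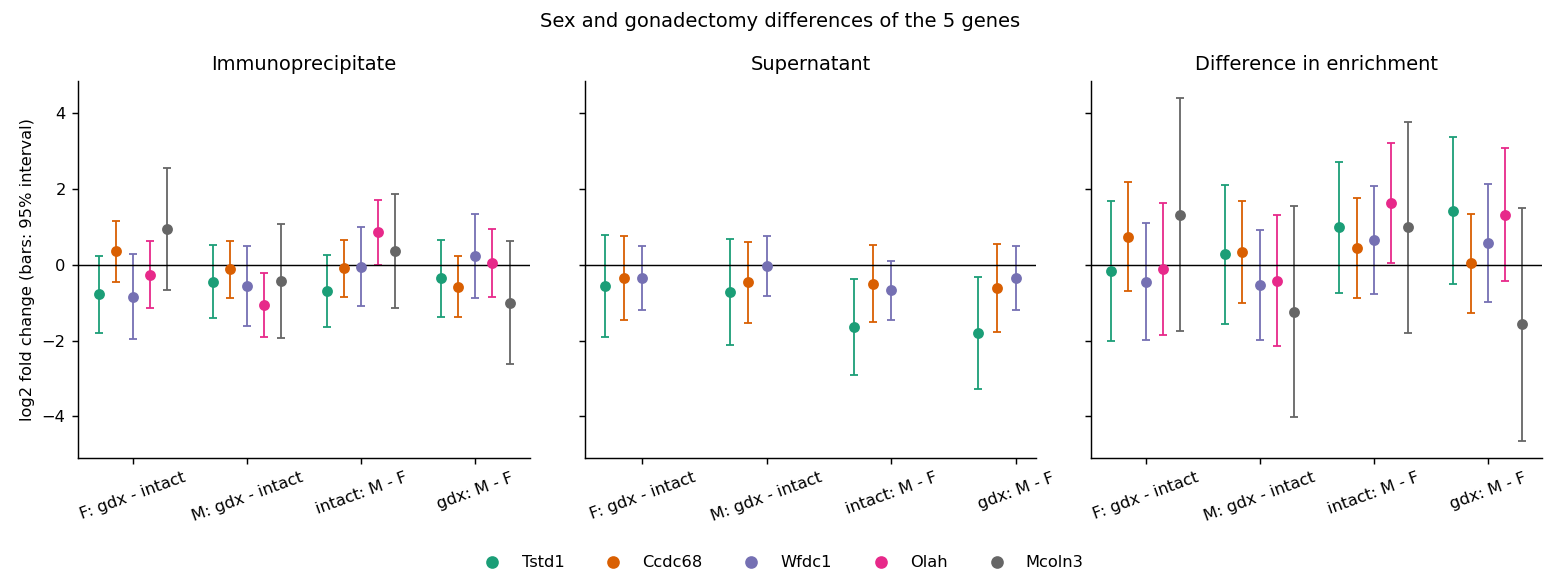
Log2 differences of the 5 genes between conditions, with 95% intervals, in the immunoprecipitate, the supernatant and the enrichment; F, female; M, male; gdx, gonadectomized; Olah and Mcoln3 were too scarce for the supernatant. No difference passed adjustment over all genes, and the unadjusted p was under 0.05 for Olah with gonadectomy of males and for Tstd1 between the sexes in the supernatant.

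In the 5 lists of related genes the highest log2 enrichment was 0.88, for Wfdc3, which was not called. The 5 genes were chosen for high values of this contrast, so nothing is read from their place above these lists. The counts of calls stand beside 21.3% of all genes called higher and 21.6% called lower, and no list is set apart from them here. Of 12 rhodanese and sulfide oxidation genes, 2 rose in the immunoprecipitate and 3 fell (edgeR, adjusted p under 0.05), with a median log2 of -0.06. Tst, the classical rhodanese of liver mitochondria, fell by 1.05 and Mpst, which makes hydrogen sulfide from mercaptopyruvate, fell by 0.79. Tstd2, another rhodanese-domain relative, fell by 0.26 (adjusted p 0.032), while Tstd3, named 2610029I01Rik in these data, did not pass (0.02, adjusted p 0.876). Txn1, a thioredoxin, rose by 0.70 and Suox, the sulfite oxidase, by 0.68. Tstd1 itself, chosen on this contrast, stood at 5.42.

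Of 12 genes of the subdistal appendage, 5 rose and 2 fell, with a median of 0.15. Ccdc120, which pairs with Ccdc68 at the appendage, rose by 0.26 (adjusted p 0.0318), Odf2, its scaffold, by 0.32 and Mapre1, a microtubule end-binding protein, by 0.39. Cep170 fell by 0.53. Of 7 tested genes with a WAP domain, 0 rose and 2 fell (Wfikkn1 by 3.09 and Wfikkn2 by 1.92, both growth factor antagonists at under 0.3 CPM), with a median of -0.67, and Wfdc1 was the only gene of the family with a mean above 2 CPM in either fraction.

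Of 14 genes of fatty acid synthesis and thioesterases, 4 rose and 2 fell, with a median of -0.01. Fasn, the synthase on which Olah acts, was at 116 ± 37.8 CPM in the immunoprecipitates and 129 ± 23 in the supernatants (log2 -0.18 ± 0.12, adjusted p 0.243). Elovl6, a fatty acid elongase, rose by 0.63, and Scd2, a desaturase, fell by 0.58. Of 12 tested endolysosomal channel and PIKfyve genes, 0 rose and 4 fell, with a median of -0.33. Mcoln1, which encodes TRPML1, did not pass (-0.16 ± 0.13, adjusted p 0.345), and Mcoln2 was too scarce to be tested. Vac14, Ostm1, Pikfyve and Tfeb fell by 0.50, 0.49, 0.37 and 0.34. On the ribosomes, where 8.4% of all genes had a called positive slope on Gnrh1 and 5.1% a negative one, the slope was positive in 2 of 12 rhodanese and sulfide genes, and positive in 1 and negative in 1 of 12 appendage genes. It was negative in 2 of 14 fatty acid genes, and 0 of 4 tested WAP genes and 0 of 12 endolysosomal genes had a called slope.

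Positions are on mm10 from GENCODE. Tstd1 lies on the plus strand of chromosome 1 from 171418872 to 171420352, Olah on the minus strand of chromosome 2 from 3341982 to 3397210 and Mcoln3 on the plus strand of chromosome 3 from 146117450 to 146141806. Wfdc1 lies on the plus strand of chromosome 8 from 119666365 to 119688222 and Ccdc68 on the plus strand of chromosome 18 from 69925426 to 69969484. An antisense gene, 1700061H18Rik, shares 230 bases of exon with Ccdc68, and the libraries do not mark strand, so its reads and those of Ccdc68 cannot be told apart there.

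Some genes next to the 5 on the chromosome were called higher in the immunoprecipitate as well. Usf1, a widely expressed transcription factor, overlaps Tstd1 by 271 bases on the same strand and shares 200 bases of exon with it. Usf1 averaged 194 ± 52.0 CPM in the immunoprecipitates and 130 ± 10.3 in the supernatants, a log2 of 0.55 ± 0.10. Tstd1 averaged 1.88 CPM in those supernatants. In the immunoprecipitates Tstd1 averaged 71.4 CPM. Reads in the shared exon cannot be assigned for sure, so the levels of both genes are uncertain to that degree. The part of Tstd1 reads in the Usf1 difference was not tested. F11r, the junctional adhesion molecule A, lies 17182 bases further on and rose by 2.69 ± 0.24.

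Acbd7, which encodes an acyl-CoA binding protein, lies 988 bases from the end of Olah and rose by 3.89 ± 0.27, the most of the neighbours tested. Acbd7 averaged 29.6 ± 16.3 CPM in the immunoprecipitates and 1.94 ± 0.925 in the supernatants, and its slope on Gnrh1 was 0.77 (adjusted p 9.17e-05, edgeR), where that of Olah did not pass. Meig1, on the other side of Olah, rose by 1.42. Near Wfdc1, Kcng4, a potassium channel subunit, rose by 2.29 ± 0.13, while Atp2c2, a calcium pump, did not pass (0.78 ± 0.39, adjusted p 0.117). Near Ccdc68, Rab27b, a GTPase of vesicle release, rose by 1.15 and Tcf4, a basic helix-loop-helix transcription factor, by 0.31. Near Mcoln3, Wdr63 did not pass (0.73 ± 0.74, adjusted p 0.452). In all, 7 of the 10 tested neighbours, among them Usf1 with its shared exon, were called higher, against 21.3% of all genes.

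**Figure D5:**
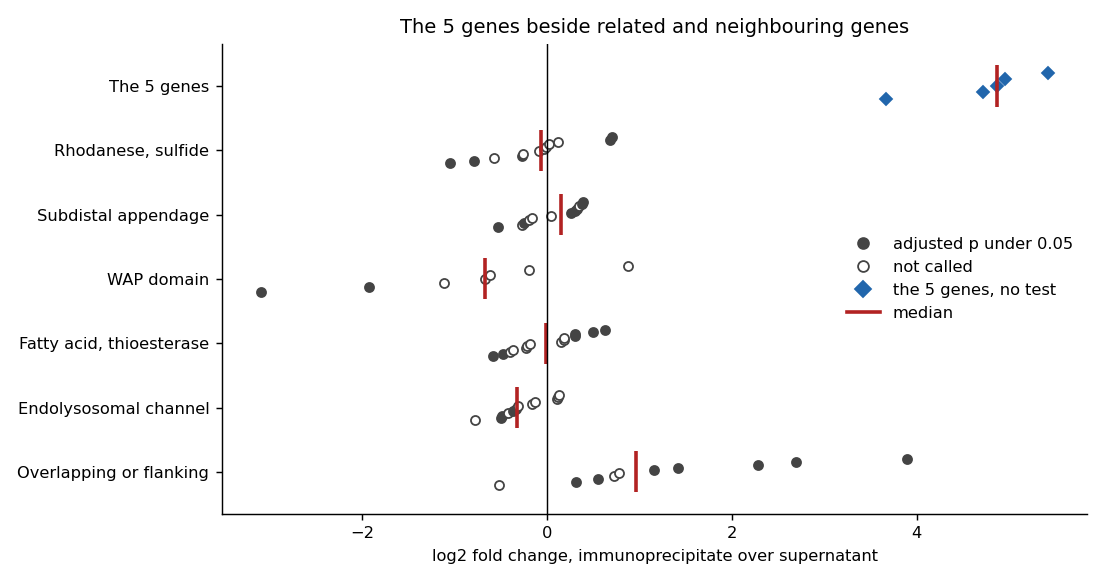
Log2 fold change, immunoprecipitate over supernatant, of the 5 genes (diamonds, no test), of 5 lists of related genes and of the genes that overlap or flank them; filled circles passed at an adjusted p under 0.05 (edgeR) and red bars are medians. The 5 genes, chosen on this contrast, lie between 3.67 and 5.42. The list medians lie between -0.67 and 0.15, and Acbd7 is the highest neighbour at 3.89.

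Other groups of enriched genes differed in how many members had a called slope on Gnrh1. In the immunoprecipitates the slope was called in 4 of 4 epithelial-type genes (Rab25, Epcam, Cldn9, Tmprss6), in 3 of 3 homeobox genes (Otx1, Six6, Isl1) and in 0 of 3 chromatin genes (Bahcc1, Tnrc18, Bcor), beside 3 of 5 here and 8.4% of all genes. With the term for library numbering 0 of all genes were called, these included. The medians of the slopes were 0.56, 0.40 and -0.08, against 0.68 for the 5 genes. The chromatin genes were as enriched (median log2 4.82) as the 5 (4.87). In the supernatants 3 of 4 epithelial-type, 1 of 3 homeobox and 2 of 3 chromatin genes had a called slope, against 0.0672% of all genes. The difference between groups was not tested.

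Over the 13 immunoprecipitates, among genes averaging at least 5 CPM, the closest pattern to that of Wfdc1 was Spint2, a serine protease inhibitor (Pearson's r = 0.98 on log2 CPM), followed by Gnrh1 and Resp18 (0.98). Tstd1 was closest to Arg1, the arginase (r = 0.96), Rsph1 (0.96) and Angptl6 (0.96). Ccdc68 was closest to Ccdc109b (0.86), Dydc2 (0.84) and Tmem216 (0.81), Olah to Dock5 (0.89), Tm4sf5 (0.85) and Zdhhc4 (0.80), and Mcoln3 to Txndc11 (0.78), Tubg2 (0.77) and Tfr2 (0.75). This likeness was used to name genes, spans both sets of library numbers and is a description. Dock5 is itself the gene next to Gnrh1, 2695 bases away.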

How the data were processed

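TRAP-seq libraries from both fractions of 13 pools were analysed. The authors deposited 1 table of estimated counts per gene, not normalized, for 26 libraries, and 98.5% of the values are whole (within 1e-06). Tools named in the submitters' processing notes are TopHat2 2.0.9, Bowtie2 2.1.0, FastQC, Cuffdiff 2.1.1 and Cufflinks, with mm10. The annotation, and how multiply mapped reads were treated, were not given in the sources used here. Per the labels' protocols, cDNA came from a SMART-Seq kit, which does not mark strand.

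Counts were rounded and tested with edgeR 4.0.16 in R 4.3.3: TMM, filterByExpr (minimum count 10, minimum total 15), the two-sided quasi-likelihood F-test and Benjamini-Hochberg adjustment over all genes tested. The enrichment and its changes used 26 libraries in 8 groups, and the other fits the 13 libraries of 1 fraction. Signs are male minus female, gonadectomized minus intact, and immunoprecipitate minus supernatant. For slopes, log2 Gnrh1 was a covariate and Gnrh1 left out. Correlations used log2 CPM with a prior count of 2 and no term for condition. The scripts were tested on simulated data. Alternatives were DESeq2 1.42.0, other size factors, no filter on low counts, a replicate block, a term for library numbering, no condition groups, and leaving out libraries.

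The 5 members and all lists were chosen with earlier results of these data known. Named genes were the 5, Gnrh1, list members, overlapping or flanking genes, and the 3 genes of at least 5 CPM closest in pattern. The other 10 genes with a called slope in the supernatants were named after their values were seen. Of 144 list genes 142 were matched, 8 through synonyms. Total counts ran from 27217252 to 56668581. Replicates are separate pools of mice, and no replicate pair came within sampling noise of another (lowest chi-square per degree of freedom 4.51). Both fractions of a pool came from the same mice, which pairs them; their deviations correlated at 0.02 to 0.20. Same-numbered supernatants of intact females and intact males correlated at 0.32, 0.37 and 0.35 in their deviations, so the number pairs them in the data, and the blocked value is given beside the result it bears on. The tested genes in supernatants leave out Olah and Mcoln3.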

Additional observations from a re-analysis of the deposited data

How the results depend on the processing

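The median log2 enrichment of the 5 genes, 4.87, was 5.01 with a replicate block for the pool, 4.60 to 5.32 without each pool in turn, 4.14 in libraries 11 to 30 and 6.09 in libraries 1 to 10. In the latter both intact female supernatants held 0 Mcoln3 counts; with Mcoln3 at its bound of 3 counts for the group the median was 5.93. These splits by numbering, and leaving out the supernatant of intact female replicate 2 alone (5.23), were chosen after seeing the data. The 3 called slopes in the immunoprecipitates became 0 with a term for library numbering and 0 in libraries 11 to 30, and 2 to 3 without each library in turn; the all-gene count of 2182 became 0 and 0. The 1 called slope in the supernatants became 3 with no condition groups (Ccdc68, adjusted p 0.0261, and Wfdc1, 0.0277, joined), 0 in libraries 11 to 30, and 0 to 2 without each library in turn. It was 0 without intact female replicate 2 and 2 without intact female replicate 1, where Wfdc1 joined (adjusted p 0.0445, edgeR). The cause was not tested.

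In sex and gonadectomy comparisons 0 members were called under all alternatives run, with or without the replicate block; the lowest adjusted p was 0.0545 (Tstd1 between the sexes of gonadectomized mice, supernatants 11 to 30, edgeR). Of 1021 alternative values, 83 changed sign, none of them called. Deviations of same-numbered pools of different conditions correlated above 0.1 in 2 of 18 immunoprecipitate and 7 of 18 supernatant pairs, which include all 3 pairs of intact females and males. For that comparison the replicate block left 0 members called. In the other tested comparisons not every pair was above 0.1. The same-numbered intact pairs also share a set of library numbers, so pairing by replicate number itself was not shown.

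Counts over all genes moved more. For sex in gonadectomized supernatants 7 became 1080 with the numbering term, 1297 with DESeq2, 269 in libraries 11 to 30 and 2894 without ovariectomized female replicate 2. For gonadectomy of females in supernatants 2 became 505 without that library and 8 with DESeq2. Without intact female replicate 2, sex in intact immunoprecipitates went from 4 to 11, and the change of enrichment from 1 to 61 for sex and from 0 to 54 for gonadectomy of females. DESeq2 gave 5 to 30 calls in immunoprecipitates and 9 to 17 in enrichment changes, and the replicate block gave 2 for sex in intact immunoprecipitates. Called slopes fell to 987 without the immunoprecipitate of intact female replicate 2 and to 1338 without that of intact male replicate 2. Slopes in supernatants ranged from 0 to 23. With 3 or 4 pools a group, the intervals above bound what could be seen.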

Other observations

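Relative to Gnrh1, Tstd1 on the ribosomes tended to be higher in females. Tstd1 had 7.61 to 11.7 counts per 1000 Gnrh1 counts in the 6 female immunoprecipitates (median 8.98) and 4.87 to 7.76 in the 7 male ones (median 6.96), with a small overlap. Wfdc1, at 6.26 to 9.2 in females and 6.68 to 9.75 in males, showed no such split. Ccdc68 had 0.815 to 1.4 counts per 1000 Gnrh1 counts in the 4 immunoprecipitates numbered 1 to 10 and 1.75 to 3.58 in the 9 later ones. Gnrh1, the divisor, itself ran from 16900 to 20900 CPM in the first set and from 3170 to 8770 in the later one. No share of all genes is set beside this ratio, so nothing about Ccdc68 is read from it. These comparisons were chosen after their values were seen and were not tested.

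Among themselves, in the 9 later immunoprecipitates, Ccdc68 and Mcoln3 were closest (r = 0.87), then Tstd1 and Ccdc68 (0.82) and Ccdc68 and Wfdc1 (0.77). Olah stood apart, with r between -0.24 and 0.38 to the other 4. These are descriptions over 9 libraries that share their scaling.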
